A study of Mus musculus with 3 samples.

Results

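This account follows 10 mouse genes that encode surface receptors of myeloid cells and effector proteins of neutrophils: Csf3r, Csf2ra, Fpr1, Fpr2, Cd177, Ly6g, Retnlg, Hp, Chi3l1 and Padi4. They were chosen by name, as the lines of the expression table whose gene entry equals the symbol, and 9 of the 10 had a line among the 23348 used. Ly6g had none and was not analysed here. RNA was sequenced from thymus cells sorted for CD44 and for the absence of CD25 and lineage markers (a gate called DN1, where the earliest progenitors of the T lineage lie). All mice were 19 days old and of the strain 129sv/C3H. The CD2-Ostm1 gl/gl library came from 3 pooled gl/gl mice that carried the Ostm1 transgene, the gl/gl (Ostm1-/-, grey-lethal) library from 3 pooled mice without it, and the wild type library from 2 pooled mice. With 1 library per genotype, no difference below has a replicate check, no test between genotypes was possible and no p-value is given.

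Mice homozygous for the grey-lethal mutation have no Ostm1, a protein that pairs with the chloride transporter Clcn7 of lysosomes, and develop osteopetrosis, a failure of osteoclasts to resorb bone. CD2 regulatory sequences are used to direct transgenes to cells of the T lineage. Neutrophils are made from bone marrow progenitors under granulocyte colony-stimulating factor, which acts through the receptor encoded by Csf3r. They move towards bacterial peptides with formyl peptide receptors, attach to vessel walls with adhesion proteins, and carry proteins such as haptoglobin in granules. The enzyme encoded by Padi4 converts arginine in histones to citrulline, a step in the release of chromatin as extracellular traps.

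Markers of the gate and of the genotype were read first, in FPKM (fragments per kilobase of transcript, scaled for the depth of the library; the table names no unit, and this one was taken from the tool that made it). Cd44 had 64.7 FPKM in CD2-Ostm1 gl/gl, 109 FPKM in gl/gl and 66.4 FPKM in wild type, and Cd34, a marker of progenitors, had 153 FPKM in CD2-Ostm1 gl/gl, 6.17 FPKM in gl/gl and 149 FPKM in wild type. Il2ra, which encodes CD25, had 4.03 FPKM in CD2-Ostm1 gl/gl, 11.7 FPKM in gl/gl and 5.94 FPKM in wild type. The level of Ostm1 was 5.35 FPKM in CD2-Ostm1 gl/gl, 0 in gl/gl, as listed, and 19.6 FPKM in wild type, and Clcn7 had 9.04 FPKM in CD2-Ostm1 gl/gl, 12.5 FPKM in gl/gl and 8.94 FPKM in wild type. The level of Xist, which coats the inactive X, was 235 FPKM in CD2-Ostm1 gl/gl, 0.184 FPKM in gl/gl and 116 FPKM in wild type, and the Y-linked Eif2s3y had 0.0395 FPKM in CD2-Ostm1 gl/gl, 59.8 FPKM in gl/gl and 0.0338 FPKM in wild type. Sex and genotype therefore cannot be told apart in comparisons with gl/gl, and only CD2-Ostm1 gl/gl against wild type leaves that library out. Between 11745 and 12073 genes reached 1 FPKM in each library, and 1 fragment on 1 kb of transcript was worth about 0.0359 FPKM in CD2-Ostm1 gl/gl, 0.0330 FPKM in gl/gl and 0.0207 FPKM in wild type. The RNA Neat1, which is retained in the nucleus, had 97.6 FPKM in CD2-Ostm1 gl/gl, 213 FPKM in gl/gl and 46.2 FPKM in wild type.

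The plot of levels by genotype shows that all 9 genes were higher in gl/gl than in each of the other libraries. The summed level was 25.6 FPKM in CD2-Ostm1 gl/gl, 1658 FPKM in gl/gl and 20.1 FPKM in wild type. The median of the 9 levels was 2.29 FPKM in CD2-Ostm1 gl/gl, 77.6 FPKM in gl/gl and 1.08 FPKM in wild type. In CD2-Ostm1 gl/gl and in wild type every gene lay under 11 FPKM, while in gl/gl every gene lay at or above 29.2 FPKM.

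**Figure D1:**
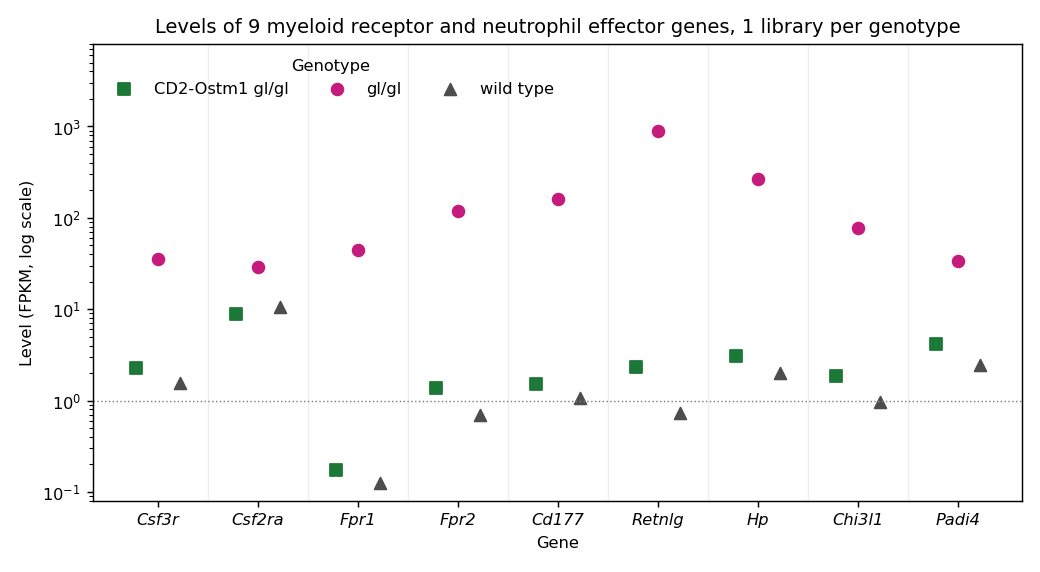
Level in FPKM (vertical log axis) of the 9 genes (horizontal axis), with 1 point per library: squares for CD2-Ostm1 gl/gl, circles for gl/gl and triangles for wild type. The dotted line marks 1 FPKM; the circles lie between 29.2 and 889.6 FPKM, above the square and the triangle of the same gene in each case.

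Promoter sequence is shown for 5 of the genes because they span the sizes of difference found below. Retnlg had the largest difference between gl/gl and wild type of the 9, Csf2ra the smallest, Fpr1 and Fpr2 are neighbouring copies of a receptor gene, and Cd177 is a receptor of another family. Each line gives the 250 bases before the annotated start (RefSeq, GRCm38.p6, the assembly that mm10 names), 5′ to 3′ on the strand of the gene. Capitals mark matches on either strand to TTNNGNAA, a form of the site of C/EBP factors, or to GAGGAA, the core of the site of PU.1, both of them factors of myeloid cells.
Retnlg (chr16:48872358-48872607, + strand): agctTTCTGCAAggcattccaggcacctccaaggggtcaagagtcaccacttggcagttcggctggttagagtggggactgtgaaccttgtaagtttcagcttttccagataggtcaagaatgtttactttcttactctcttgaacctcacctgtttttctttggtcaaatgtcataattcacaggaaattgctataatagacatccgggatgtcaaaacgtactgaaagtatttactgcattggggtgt
Fpr1 (chr17:17883940-17884189, - strand): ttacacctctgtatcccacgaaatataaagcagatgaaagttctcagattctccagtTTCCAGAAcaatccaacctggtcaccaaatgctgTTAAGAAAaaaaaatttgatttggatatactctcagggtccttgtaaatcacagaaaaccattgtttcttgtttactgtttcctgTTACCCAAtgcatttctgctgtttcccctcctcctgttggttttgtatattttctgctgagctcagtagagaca
Fpr2 (chr17:17887574-17887823, + strand): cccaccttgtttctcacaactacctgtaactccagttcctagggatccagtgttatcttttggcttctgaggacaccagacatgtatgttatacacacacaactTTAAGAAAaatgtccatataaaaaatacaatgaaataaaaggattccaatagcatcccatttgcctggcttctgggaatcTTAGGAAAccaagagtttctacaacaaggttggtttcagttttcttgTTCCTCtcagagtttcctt
Cd177 (chr7:24760312-24760561, - strand): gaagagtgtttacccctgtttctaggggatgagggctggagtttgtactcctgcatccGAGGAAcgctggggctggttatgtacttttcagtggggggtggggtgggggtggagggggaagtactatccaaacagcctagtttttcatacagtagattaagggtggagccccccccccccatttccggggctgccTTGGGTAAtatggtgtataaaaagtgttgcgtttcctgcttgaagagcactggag
Csf2ra (chr19:61228419-61228668, - strand): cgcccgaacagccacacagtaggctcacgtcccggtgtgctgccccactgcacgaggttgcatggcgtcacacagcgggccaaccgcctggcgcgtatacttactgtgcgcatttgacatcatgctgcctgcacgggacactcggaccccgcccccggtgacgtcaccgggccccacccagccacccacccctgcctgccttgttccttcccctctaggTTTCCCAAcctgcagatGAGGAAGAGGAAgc

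Of the 8 genes with both a table line and a promoter entry, 6 had TTNNGNAA in these 250 bases, against 36.8% of all 32851 promoters of that length. GAGGAA was found in 4 of the 8, against 23.3% of all promoters. Csf2ra, Cd177 and Fpr2 held both motifs, and the promoter of Padi4 held neither. In Csf2ra 2 matches to GAGGAA lie end to end, and no match to 1 motif overlapped a match to the other in the 5 sequences. Base composition differed as well: G and C made up 64.8% of these bases in Csf2ra, 38.4% of these bases in Fpr1 and 38.8% in Fpr2, against a median of 52.4% over all promoters. The matches describe the letters only, and binding was not measured.

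Csf3r (chromosome 4, 126024659 to 126044975, mm10) encodes the receptor of granulocyte colony-stimulating factor, the main growth factor of neutrophils. Its level was 2.29 FPKM in CD2-Ostm1 gl/gl, 35.1 FPKM in gl/gl and 1.57 FPKM in wild type. The gl/gl library was the high one, with 22.4 times the wild type value, and the other libraries lay close together. On the scale of log2(FPKM + 1), which is used for all fold changes here and understates those of low genes, the change was 3.82 for gl/gl against wild type and -3.46 for CD2-Ostm1 gl/gl against gl/gl. Of its 50-base transcript stretches (GENCODE vM21) 10.7% also occur in other genes, 325 of them in AC105061.2, so reads can be shared and its value is uncertain to that extent.

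Csf2ra (chromosome 19, 61224402 to 61228418) encodes the alpha chain of the receptor for granulocyte-macrophage colony-stimulating factor, which also acts on macrophages and dendritic cells. It had 8.79 FPKM in CD2-Ostm1 gl/gl, 29.2 FPKM in gl/gl and 10.5 FPKM in wild type. This was the only one of the 9 that was lower in CD2-Ostm1 gl/gl than in wild type, and the one with the highest level in each of these libraries. Its log2 fold changes, 1.40 for gl/gl against wild type and -1.63 for CD2-Ostm1 gl/gl against gl/gl, were the smallest of the 9 and lay inside the central 95% of all 12849 measured genes (measured genes being those that reached 1 FPKM in any library). Csf2rb, the beta chain that pairs with it, had a like pattern, with 6.94 FPKM in CD2-Ostm1 gl/gl, 25.9 FPKM in gl/gl and 7.59 FPKM in wild type. The ratio of the alpha to the beta chain level was 1.27 in CD2-Ostm1 gl/gl, 1.13 in gl/gl and 1.38 in wild type.

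Fpr1 (chromosome 17, 17876471 to 17883939, minus strand) encodes the formyl peptide receptor 1, which guides neutrophils towards bacterial peptides. Its level was 0.173 FPKM in CD2-Ostm1 gl/gl, 44.7 FPKM in gl/gl and 0.124 FPKM in wild type. It was the lowest of the 9 in CD2-Ostm1 gl/gl and in wild type, and the only one under 1 FPKM in each of them. Estimated roughly from the smallest non-zero values of the table, these levels stood for about 5 fragments in CD2-Ostm1 gl/gl, 1523 in gl/gl and 7 in wild type. Fpr1 passed the filter of 1 FPKM through gl/gl alone, which fixes the direction of its differences from gl/gl.

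Fpr2 (chromosome 17, 17887824 to 17893952, plus strand) encodes the related formyl peptide receptor 2, which also binds annexin A1 and cathelicidin peptides. The genes lie head to head with 3884 bases between them. Fpr2 had 1.38 FPKM in CD2-Ostm1 gl/gl, 119.9 FPKM in gl/gl and 0.695 FPKM in wild type. It was higher than Fpr1 in every library, by a ratio of 7.94 in CD2-Ostm1 gl/gl, 2.68 in gl/gl and 5.58 in wild type, although the first and last of these rest on the few fragments of Fpr1. The log2 fold changes for gl/gl against wild type were 5.34 for Fpr1 and 6.16 for Fpr2, and those for CD2-Ostm1 gl/gl against gl/gl were -5.28 and -5.67. Of the 50-base stretches of the annotated Fpr2 transcripts (GENCODE vM21) 31.5% also occur in transcripts of other genes, most of them (368) in the pseudogene Gm5966 and 82 in Fpr3, so reads can be shared and the separate value of Fpr2 is uncertain. Fpr1 and Fpr2 had only 1 such stretch in common.

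Cd177 (chromosome 7, 24743983 to 24760311) encodes a surface glycoprotein of neutrophils from the family of Ly6 and urokinase receptor domains, which on human neutrophils binds PECAM1 and presents proteinase 3. It had 1.52 FPKM in CD2-Ostm1 gl/gl, 161 FPKM in gl/gl and 1.08 FPKM in wild type. The value in CD2-Ostm1 gl/gl was 0.945% of that in gl/gl, and the value in wild type was 0.670% of it. Its log2 fold change for gl/gl against wild type was 6.28. Other genes shared 5.51% of its 50-base stretches.

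Retnlg (chromosome 16, 48872608 to 48874498) encodes resistin-like gamma, a small secreted protein found in mouse bone marrow and neutrophils. It had 2.32 FPKM in CD2-Ostm1 gl/gl, 889.6 FPKM in gl/gl and 0.734 FPKM in wild type. It took the first place of the 9 in gl/gl but only the fourth in CD2-Ostm1 gl/gl and the seventh in wild type. The log2 fold changes of 9.0 for gl/gl against wild type and -8.07 for CD2-Ostm1 gl/gl against gl/gl placed it at rank 9 from the top and at rank 10 from the bottom of all measured genes. The rough number of fragments was 25 in CD2-Ostm1 gl/gl, 10619 in gl/gl and 14 in wild type. Its difference between CD2-Ostm1 gl/gl and wild type thus rests on few fragments. No 50-base stretch of its transcript occurred in another gene.

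Hp (chromosome 8, 109575128 to 109579172) encodes haptoglobin, which binds free haemoglobin and is made in liver and stored in neutrophil granules. Its level was 3.07 FPKM in CD2-Ostm1 gl/gl, 268 FPKM in gl/gl and 1.99 FPKM in wild type. The log2 fold change for gl/gl against wild type, 6.49, was the second largest of the 9, and the value in CD2-Ostm1 gl/gl was 1.14% of that in gl/gl. Over the 3 libraries Hp and Cd177 had the most alike patterns among the 9, with a distance of 0.157 between their centred log2 levels.

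Chi3l1 (chromosome 1, 134182404 to 134190031, named Chil1 in RefSeq) encodes a chitinase-like lectin without enzyme activity, found in human neutrophil granules and in macrophages. It had 1.88 FPKM in CD2-Ostm1 gl/gl, 77.6 FPKM in gl/gl and 0.953 FPKM in wild type. The log2 fold changes were 5.33 for gl/gl against wild type and -4.77 for CD2-Ostm1 gl/gl against gl/gl.

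Padi4 (chromosome 4, 140745508 to 140774203) encodes peptidylarginine deiminase 4. Its level was 4.16 FPKM in CD2-Ostm1 gl/gl, 33.4 FPKM in gl/gl and 2.47 FPKM in wild type. It was second in the order of the 9 in CD2-Ostm1 gl/gl and in wild type, after Csf2ra, and next to last in gl/gl, where Csf2ra was last. The value in CD2-Ostm1 gl/gl was 12.4% of that in gl/gl and the value in wild type 7.38% of it, higher shares than those of any of the others except Csf2ra. Its log2 fold changes were 3.31 for gl/gl against wild type and -2.74 for CD2-Ostm1 gl/gl against gl/gl.

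In gl/gl against wild type each of the 9 was at least 2-fold higher and none lower, where 8.16% of all measured genes were higher and 6.15% lower by that much. Their log2 fold changes ran from 1.40 to 9.0 with a median of 5.34, against a median of -0.03 over all measured genes. The 100 highest fold changes of the table included 8 of the 9, and of the 44 genes with a log2 fold change of 5 or more, 6 were among them. Wild type levels under 1 FPKM were found for 4 of the genes (Fpr1, Fpr2, Retnlg and Chi3l1), and these passed the filter through other libraries.

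In CD2-Ostm1 gl/gl against gl/gl each of the 9 was at least 2-fold lower and none higher, beside 9.82% of all measured genes lower and 6.47% higher. The log2 fold changes ran from -8.07 to -1.63 with a median of -5.28, against a median of 0.02 over all measured genes. This comparison shares the gl/gl library with the one before, so the same high values of that library enter each of them.

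In CD2-Ostm1 gl/gl against wild type none of the 9 was at least 2-fold higher or lower, beside 1.34% and 1.67% of all measured genes. The values were higher in CD2-Ostm1 gl/gl for 8 of the 9, with a median log2 fold change of 0.45 against -0.04 over all measured genes, and 8 of the 9 lay inside the central 95% of all genes. Retnlg had the largest difference, 0.94 on the log2 scale and 3.16 as a ratio of FPKM values. With a pseudocount of 0.1 its log2 fold change was 1.54, past 2-fold. Fpr2 and Chi3l1 had ratios of 1.98 and 1.97. The order of the 9 by level had 6 genes at the same place in CD2-Ostm1 gl/gl and in wild type, and 0 at the same place in gl/gl and in either of the others. Without replicates, neighbours in that order such as Retnlg and Csf3r in CD2-Ostm1 gl/gl, whose levels of 2.32 and 2.29 FPKM had a ratio of 1.02, cannot be ranked.

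**Figure D2:**
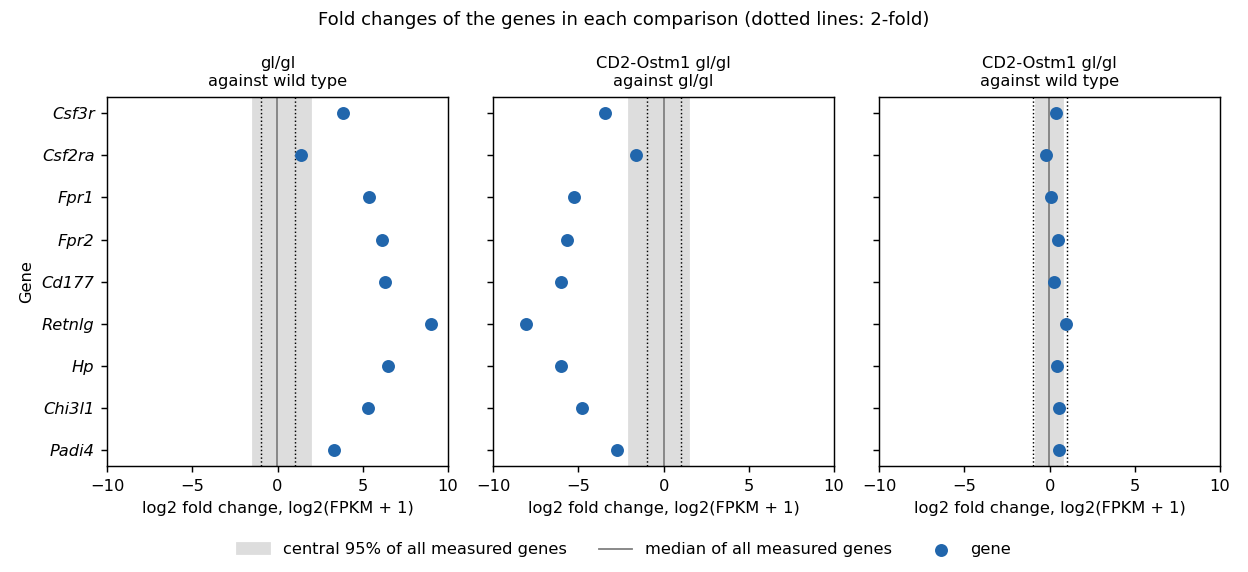
Log2 fold changes on log2(FPKM + 1) (horizontal axes) of the 9 genes (vertical axis) in the 3 comparisons, 1 library against 1 library each. Points are genes, the grey band is the central 95% of 12849 measured genes, the grey line their median and the dotted lines 2-fold; the points run from 1.40 to 9.0 in the left panel, from -8.07 to -1.63 in the middle panel, and lie between the dotted lines in the right panel.

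Other markers of neutrophils moved with these genes. Of the 14 listed markers 13 had a line, and 10 of those are not among the 9 genes: Cxcr2, Mmp9, Mmp8, S100a8, S100a9, Il1b, Lcn2, Ltf, Camp and Ngp. Their summed level was 244 FPKM in CD2-Ostm1 gl/gl, 28280 FPKM in gl/gl and 239 FPKM in wild type, and none was listed at 0 in any library. All 10 were at least 2-fold higher in gl/gl than in wild type. Of these, Mmp8 and Il1b passed the filter through gl/gl alone, which fixes their direction. In bulk RNA from a sort, fewer cells of a type and less RNA per cell cannot be told apart.

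Set against this sum within each library, the 9 genes did not keep a common ratio, as the plot of levels per neutrophil marker shows. Cd177 had 6.21 FPKM per 1000 FPKM of the 10 markers in CD2-Ostm1 gl/gl, 5.68 in gl/gl and 4.50 in wild type, and Hp had 12.6, 9.49 and 8.34 in the same libraries. These values were close to each other. Csf2ra had 36.0 in CD2-Ostm1 gl/gl, 1.03 in gl/gl and 43.9 in wild type, which puts gl/gl far below the others. Padi4 had 17.0 in CD2-Ostm1 gl/gl, 1.18 in gl/gl and 10.3 in wild type, and Csf3r had 9.36, 1.24 and 6.56 in the same libraries. Chi3l1 was also lowest in gl/gl, with 7.69 in CD2-Ostm1 gl/gl, 2.74 in gl/gl and 3.99 in wild type. Retnlg and Fpr1 were highest in gl/gl: Retnlg had 9.51 in CD2-Ostm1 gl/gl, 31.5 in gl/gl and 3.07 in wild type, and Fpr1 had 0.710 in CD2-Ostm1 gl/gl, 1.58 in gl/gl and 0.521 in wild type. Outside gl/gl the values of Retnlg and Fpr1 rest on few fragments. These were about 25 in CD2-Ostm1 gl/gl and 14 in wild type for Retnlg, and about 5 and 7 for Fpr1. Fpr2 had 5.64 in CD2-Ostm1 gl/gl, 4.24 in gl/gl and 2.91 in wild type. The choice of this sum was made after the levels were seen, and S100a8 and S100a9 make up most of it.

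**Figure D3:**
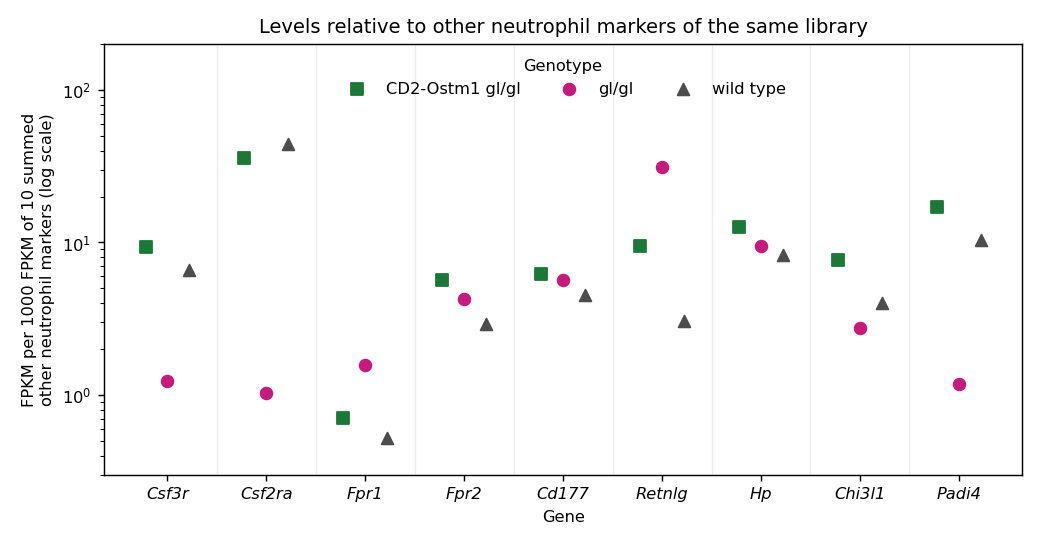
Level of each of the 9 genes per 1000 FPKM of 10 summed other neutrophil markers of the same library (vertical log axis), with squares for CD2-Ostm1 gl/gl, circles for gl/gl and triangles for wild type. Cd177 and Hp lie at like heights in the 3 libraries, Csf3r, Csf2ra, Padi4 and Chi3l1 are lowest in gl/gl (1.24, 1.03, 1.18 and 2.74), Retnlg and Fpr1 are highest there (31.5 and 1.58), and gl/gl lies between the others for Fpr2 (4.24). Outside gl/gl the points of Retnlg and Fpr1 rest on few fragments.

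Other cell types of the thymus differed between the libraries as well. Markers of monocytes and macrophages had a summed level of 225 FPKM in CD2-Ostm1 gl/gl, 1737 FPKM in gl/gl and 301 FPKM in wild type, and 11 of 15 were at least 2-fold higher in gl/gl than in wild type, with none at 0. Promyelocyte markers, of cells that precede neutrophils, summed to 188 FPKM in CD2-Ostm1 gl/gl, 69.8 FPKM in gl/gl and 165 FPKM in wild type. Of these 7, 5 were at least 2-fold higher in gl/gl than in wild type, and Mpo and Ctsg were lower. Mpo alone had 179.9 FPKM in CD2-Ostm1 gl/gl, 9.71 FPKM in gl/gl and 152 FPKM in wild type. It made up most of the sum in CD2-Ostm1 gl/gl and in wild type. Eosinophil markers summed to 7.91 FPKM in CD2-Ostm1 gl/gl, 74.2 FPKM in gl/gl and 9.95 FPKM in wild type, and 3 of 5 measured were at least 2-fold higher in gl/gl than in wild type and none lower. Prg2, the major basic protein of eosinophil granules, had 1.91 FPKM in CD2-Ostm1 gl/gl, 44.4 FPKM in gl/gl and 3.58 FPKM in wild type, and the peroxidase gene Epx had 0.0631 FPKM in CD2-Ostm1 gl/gl, 0.814 FPKM in gl/gl and 0.0382 FPKM in wild type. Siglec5 of the same list ran the other way, at 5.07 FPKM in CD2-Ostm1 gl/gl, 2.24 in gl/gl and 5.10 in wild type. Its log2 fold change of -0.91 for gl/gl against wild type fell short of 2-fold, although its ratio of FPKM values was 0.439. Markers of mast cells and basophils summed to 47.9 FPKM in CD2-Ostm1 gl/gl, 40.5 FPKM in gl/gl and 211 FPKM in wild type, and 8 of 10 measured were at least 2-fold lower in gl/gl than in wild type and 1 higher. The higher one was Hdc, histidine decarboxylase, with 0.895 FPKM in CD2-Ostm1 gl/gl, 35.0 FPKM in gl/gl and 1.31 FPKM in wild type, most of the sum in gl/gl. For Fcer1a the table gives 0 in CD2-Ostm1 gl/gl, 0 in gl/gl and 0.889 FPKM in wild type. The part of each cell type in the levels of the 9 genes was not tested.

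Among the receptors of colony-stimulating factors 6 of 7 genes were measured. Csf3r, Csf2ra and Csf2rb, 3 of the 6, were at least 2-fold higher in gl/gl than in wild type and none was lower. Beside this count, those of cell types above and those of lists below, 8.16% of all measured genes were higher and 6.15% lower. Csf1r, the receptor of macrophage colony-stimulating factor, had 17.6 FPKM in CD2-Ostm1 gl/gl, 22 FPKM in gl/gl and 15.5 FPKM in wild type, and Il3ra, the alpha chain of the interleukin 3 receptor, had 15.8 FPKM in CD2-Ostm1 gl/gl, 13.5 FPKM in gl/gl and 13.5 FPKM in wild type. Csf2rb2, the second beta chain of mice, had a log2 fold change of 0.63 for gl/gl against wild type. Of 6 ligands only Csf1 and Csf2 were measured: Csf2, which encodes granulocyte-macrophage colony-stimulating factor, had 0.564 FPKM in CD2-Ostm1 gl/gl, 2.81 FPKM in gl/gl and 0.608 FPKM in wild type, while Csf3 stayed under 1 FPKM in all libraries.

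Of 18 measured genes that carry the signals of these receptors 5 were at least 2-fold higher in gl/gl than in wild type and none lower, with a median of 0.44. The kinase Fgr stood at 2.85 on the log2 scale, with the feedback inhibitors Cish and Socs3 at 2.19 and 1.28.

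The other members of the formyl peptide receptor family, Fpr3, Fpr-rs3, Fpr-rs4 and Fpr-rs6, stayed under 1 FPKM in every library, and the highest value among them was 0.0469 FPKM. Of 20 measured genes of their signalling and ligands, 4 were at least 2-fold higher in gl/gl than in wild type and none lower. The ligand genes led them: Camp, which encodes the cathelicidin precursor, had a log2 fold change of 6.08, and Anxa1, which encodes annexin A1, 4.29 with 21.9 FPKM in CD2-Ostm1 gl/gl, 601 FPKM in gl/gl and 29.8 FPKM in wild type. Prex1 and Pik3r5, which act between the receptor and the cytoskeleton or phosphoinositide kinase, had 1.09 and 1.23. The median of the list was 0.43.

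Of 9 measured receptors for other chemoattractants 8 were at least 2-fold higher in gl/gl than in wild type and none lower, with a median of 2.14. C5ar1, C5ar2, C3ar1 and Ccr1 lay under 1 FPKM in the other libraries. They passed the filter through gl/gl alone, which fixes their direction. C5ar1, the receptor of complement C5a, had 0.344 FPKM in CD2-Ostm1 gl/gl, 22.7 FPKM in gl/gl and 0.173 FPKM in wild type, and Ccr1, a chemokine receptor, had 0.642 FPKM in CD2-Ostm1 gl/gl, 30.8 FPKM in gl/gl and 0.739 FPKM in wild type. The chemokine receptor Cxcr2 had 7.57 FPKM in CD2-Ostm1 gl/gl, 65.1 FPKM in gl/gl and 2.97 FPKM in wild type, and its log2 fold change of 1.11 for CD2-Ostm1 gl/gl against wild type was the only one of the list past 2-fold in that comparison. Ltb4r1, the receptor of leukotriene B4, had a log2 fold change of 2.72 for gl/gl against wild type.

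Of genes of neutrophil adhesion and surface 25 were measured, Cd177 included. Among them, 19 were at least 2-fold higher in gl/gl than in wild type and none lower. Fcgr4, Pira1, Trem1, Trem3, Clec5a, Cd300ld, Mrgpra2a and Mrgpra2b passed the filter through gl/gl alone, which fixes their direction. In CD2-Ostm1 gl/gl against wild type none differed by 2-fold, beside 1.34% of all measured genes higher and 1.67% lower. A count of 0 among 25 is near those shares. Trem3, an activating receptor, had 0.270 FPKM in CD2-Ostm1 gl/gl, 31.7 FPKM in gl/gl and 0.284 FPKM in wild type, and the decoy receptor Il1r2 had 1.28 FPKM in CD2-Ostm1 gl/gl, 43.4 FPKM in gl/gl and 1.01 FPKM in wild type. Fcgr4, an Fc receptor, and Cd14, a co-receptor of lipopolysaccharide, had log2 fold changes of 4.08 and 3.94. All of these lay below the 6.28 of Cd177. Pecam1, the binding partner of Cd177 in human cells, had 35.9 FPKM in CD2-Ostm1 gl/gl, 21.5 FPKM in gl/gl and 29.5 FPKM in wild type.

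The family of Ly6 and urokinase receptor domains, to which Cd177 and Ly6g belong, had 12 measured genes, of which 8 were at least 2-fold higher in gl/gl than in wild type and 1 lower (Ly6k, at -1.33). Ly6f and Ly6i passed the filter through gl/gl alone, which fixes their direction. Plaur, the urokinase receptor, had 4.69 FPKM in CD2-Ostm1 gl/gl, 43.8 FPKM in gl/gl and 3.40 FPKM in wild type. On chromosome 15, which also holds Ly6g, Ly6c2, a monocyte marker, had 75.3 FPKM in CD2-Ostm1 gl/gl, 405 FPKM in gl/gl and 84.0 FPKM in wild type, and Ly6i had 0.790 FPKM in CD2-Ostm1 gl/gl, 11.5 FPKM in gl/gl and 0.763 FPKM in wild type. Ly6c1 had 4.49 FPKM in CD2-Ostm1 gl/gl, 28.2 FPKM in gl/gl and 3.64 FPKM in wild type, so each of these was high in the gl/gl library.

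Retnlg was the only measured gene of the 4 resistin genes, since Retn and Retnla stayed under 1 FPKM and Retnlb was listed at 0 in every library. In the chitinase family 4 of 7 genes with a line were measured. Chi3l3, which encodes a secreted chitinase-like protein of mouse myeloid cells, had 3.02 FPKM in CD2-Ostm1 gl/gl, 219.9 FPKM in gl/gl and 3.15 FPKM in wild type, a log2 fold change of 5.74 for gl/gl against wild type beside 5.33 for Chi3l1. Ctbs and Chid1 had 0.75 and -0.62. The Chi3l3 and Chi3l1 levels were thus high in the same library.

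Genes of haptoglobin and haem handling had 6 of 10 measured genes at least 2-fold higher and 1 lower in gl/gl against wild type. Lcn2 and Ltf, iron-binding granule proteins, had log2 fold changes of 6.92 and 6.50, next to 6.49 for Hp. Slc40a1, the iron exporter ferroportin, had 0.585 FPKM in CD2-Ostm1 gl/gl, 17.6 FPKM in gl/gl and 1.69 FPKM in wild type. Hmox1, haem oxygenase, had 1.03 FPKM in CD2-Ostm1 gl/gl, 8.77 FPKM in gl/gl and 0.878 FPKM in wild type. The lower gene was Cd163, the macrophage receptor of haptoglobin and haemoglobin complexes, with 2.39 FPKM in CD2-Ostm1 gl/gl, 0.395 FPKM in gl/gl and 2.26 FPKM in wild type.

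Of the 5 peptidylarginine deiminases only Padi2 and Padi4 were measured. Padi2 had 15.9 FPKM in CD2-Ostm1 gl/gl, 57.5 FPKM in gl/gl and 18.0 FPKM in wild type, a higher level than Padi4 in each library but a smaller log2 fold change, 1.62 for gl/gl against wild type. In the list of extracellular trap genes 8 of 12 were at least 2-fold higher and 2 lower. Cybb, the membrane subunit of the phagocyte oxidase, differed by 4.08 on the log2 scale, and the proteases Elane and Prtn3 by 2.46 and 2.35. Mpo, myeloperoxidase, ran the other way with 179.9 FPKM in CD2-Ostm1 gl/gl, 9.71 FPKM in gl/gl and 152 FPKM in wild type, so Padi4 and Mpo were high in different libraries.

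**Figure D4:**
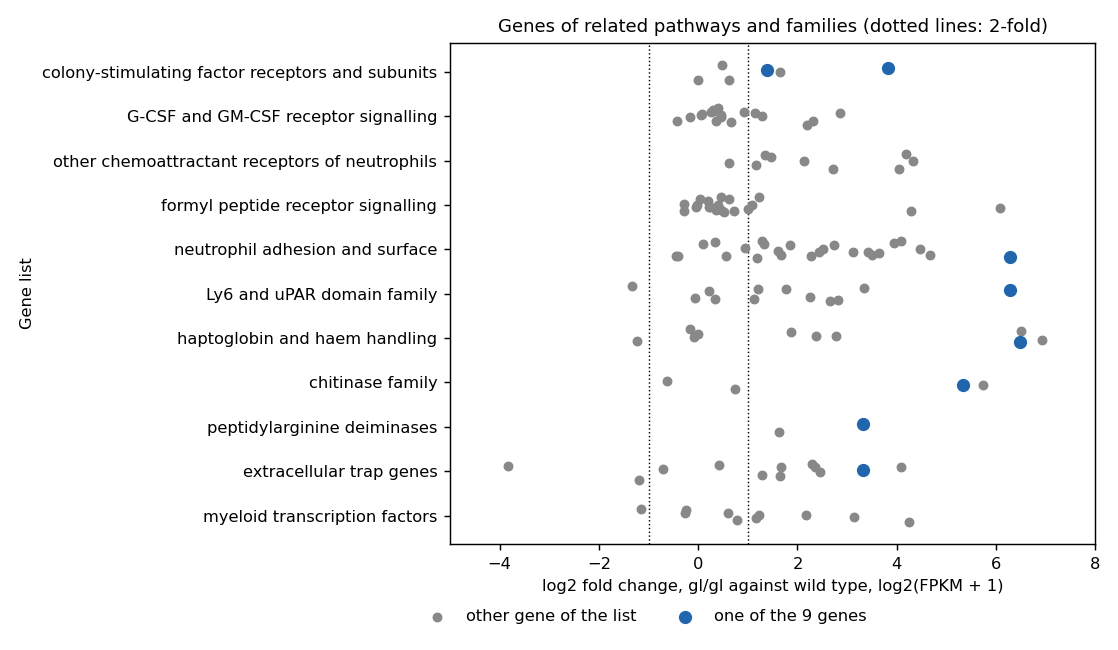
Log2 fold changes on log2(FPKM + 1) for gl/gl against wild type (horizontal axis) of the measured genes of 11 related lists (vertical axis), 1 library each. Blue points are those of the 9 genes that a list holds and grey points its other genes, with dotted lines at 2-fold; Cd177 at 6.28 lies above all other genes of its lists, and Mpo at -3.84 is the lowest point.

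Among transcription factors of myeloid cells 5 of 10 were at least 2-fold higher in gl/gl than in wild type and 1 lower. Cebpe, a factor of late granulocyte stages, had 0.498 FPKM in CD2-Ostm1 gl/gl, 22 FPKM in gl/gl and 0.214 FPKM in wild type. It passed the filter through gl/gl alone, which fixes its direction, and it is also among the promyelocyte markers used above. Cebpd and Cebpb had log2 fold changes of 3.14 and 2.16, and Irf8, a factor of monocytes and dendritic cells, 1.23. The lower gene was Runx1, at -1.16, and none of the 10 differed by 2-fold between CD2-Ostm1 gl/gl and wild type. In that comparison 1.34% of all measured genes were higher and 1.67% lower, so 0 of 10 is near those shares.

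In CD2-Ostm1 gl/gl against gl/gl the same lists had most of their differences in the other direction, and the comparisons share the gl/gl library. Over all measured genes 9.82% were lower and 6.47% higher by at least 2-fold. Lower by at least 2-fold were 4 of 6 receptors of colony-stimulating factors, 6 of 18 genes of their signalling, 4 of 20 genes of formyl peptide receptor signalling and 7 of 9 other chemoattractant receptors, with none higher. Lower were also 19 of 25 adhesion and surface genes and 8 of 12 genes with Ly6 and urokinase receptor domains, again with none higher. Of the extracellular trap genes 8 were lower and 1 higher, of the haem genes 5 and 1, and of the transcription factors 6 and 1.

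The genes whose pattern was most like that of the 9 were sought among 9491 other genes that reached 5 FPKM, leaving out predicted genes, clones and small RNAs, by the distance between centred log2(FPKM + 1) levels over the 3 libraries. Nearest to the median pattern were Ddx3y at 0.290, Chi3l3 at 0.373, Eif2s3y at 0.437, Slfn4 at 0.437 and Camp at 0.548. Ddx3y and Eif2s3y are Y-linked, so over these 3 libraries the median pattern of the 9 lay close to that of these Y-linked genes. Their log2 fold changes for gl/gl against wild type were 5.12 and 5.88. The Y-linked Kdm5d and Uty had smaller ones, 3.71 and 3.68. Sex and genotype cannot be told apart in the differences of the 9 from gl/gl. The nearest to single genes were Trem1 for Csf3r, Ddx3y for Fpr1, the lactoferrin gene Ltf for Fpr2, Ngp for Cd177, Stfa1 for Retnlg, Mapk13 for Padi4, Asprv1 for Hp, Slfn4 for Chi3l1 and Slc27a4 for Csf2ra. Their distances ran from 0.0198 for Asprv1 to 0.315 for Stfa1. Asprv1, an aspartic protease, had 1.08 FPKM in CD2-Ostm1 gl/gl, 137 FPKM in gl/gl and 0.508 FPKM in wild type.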

How the data were processed

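The starting point was the authors' table of gene levels in 3 libraries of sorted thymus cells. TopHat2 2.0.10, Cuffdiff 2.2.1 and the mouse build mm10 are named, per the submitters' processing notes. The deposited values were read as FPKM, from the tool and the values, since the header names no unit; the annotation, strand setting and scaling between libraries are not stated in the sources at hand. Of 23352 lines, 1 was empty and 3 held non-numeric cells, and 23348 were used. Deposited starts count from 0: adding 1 gave the RefSeq start for 10534 of 21340 matched genes. Fold changes are differences of log2(FPKM + 1), called at 2-fold among the 12849 genes that reached 1 FPKM in any library. A gene that reached 1 FPKM in gl/gl alone is higher there by that rule, and such genes are counted in the lists. Depth was estimated from the lowest values of genes with 1 transcript, for fragments of 200 bases, and gives no interval. The calling code was checked on simulated data. Python 3.11.15, numpy 2.4.6 and pandas 2.3.3 were used.

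The genes and lists were chosen with earlier results of these data known. Genes named are the 9, Ostm1 and Clcn7, the nearest patterns (5 to the median, 1 to each gene) and up to 4 genes of each list with the greatest change in gl/gl against wild type, of which 1 is not reported here. Others, such as Xist, Neat1, Il2ra, Pecam1, Cd163, Runx1, Hdc, Prg2, Siglec5 and Ly6k, were named after their values were seen. Markers of early thymic progenitors, dendritic, T, B, natural killer, erythroid and stroma cells summed to 1051, 339, 426, 123, 423, 3.25 and 49.0 FPKM in CD2-Ostm1 gl/gl, to 570.2, 1351, 587, 245, 1038, 2.48 and 107.6 FPKM in gl/gl and to 1283, 1009, 599, 131, 487, 13.5 and 62.3 FPKM in wild type. Such sums can hide members that go apart. In gl/gl against wild type 10 of 13 progenitor and 4 of 10 T cell markers were at least 2-fold lower and none higher. Higher were 5 of 7 B cell, 6 of 9 natural killer and 3 of 9 stroma markers, with none lower. Of 11 dendritic cell markers 1 was higher and 1 lower, and of 3 erythroid ones 2 were lower. In CD2-Ostm1 gl/gl against wild type the 7 B cell markers had a median log2 fold change of 0.89, although their sum was lower.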

Additional observations from a re-analysis of the deposited data

How the results depend on the processing

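For gl/gl against wild type and CD2-Ostm1 gl/gl against gl/gl, all 9 genes kept their direction and stayed past 2-fold with pseudocounts of 0.1 and 5, with no filter or a filter of 5 FPKM, and after scaling libraries by median gene ratio or by upper quartile. The lowest and highest log2 fold changes of Retnlg for gl/gl against wild type were 7.29 and 10.1, those of Fpr1 3.28 and 7.64, and those of Csf2ra 1.14 and 1.47. At 4-fold 8 of the 9 passed in each of these comparisons. In CD2-Ostm1 gl/gl against wild type the count of genes called higher was 1 with a pseudocount of 0.1 and 1 at 1.5-fold, Retnlg in each case, where it was 0. With a pseudocount of 0.1 the log2 fold change of Retnlg was 1.54. Over the settings, the share of all measured genes called higher in gl/gl against wild type ran from 2.37% to 16.3%, that called lower in CD2-Ostm1 gl/gl against gl/gl from 2.59% to 18.8%, and those called higher or lower in CD2-Ostm1 gl/gl against wild type from 0.202% to 5.23% and from 0.397% to 4.26%. Leaving out predicted genes, clones and small RNAs, or genes on the X and Y chromosomes, was chosen after seeing the data. The first moved the share called higher in CD2-Ostm1 gl/gl against wild type to 0.701%, against 1.34% with all genes, and the other shares stayed within 1.5 times. No paired analysis was possible because each genotype has 1 library. Low levels limit what can be read of Fpr1, Fpr2 and Retnlg in CD2-Ostm1 gl/gl and wild type.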
